A study of Mus musculus with 23 samples.

Results

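What pentoxifylline (PTX) adds to norcantharidin (NCTD) when both are injected into the tumor was read from 8 melanoma tumors, 4 of MIX_IT (tumors 21 to 24) and 4 of NCTD_IT (tumors 17 to 20), out of 23 tumors sequenced in all. MIX_IT received PTX at 60 mg/kg together with NCTD at 3 mg/kg, and NCTD_IT received NCTD at 3 mg/kg alone. The tumors were taken into the comparison by the group and route in their labels, and genes of chromosomes X and Y were left out. Of 56748 genes in the table, 4212 lie on X or Y, and 12066 of the others had enough reads to be tested. All mice were DBA/2J, 6 to 8 weeks old, and carried subcutaneous tumors of B16-F1, a melanoma cell line of C57BL/6 origin, so that each tumor holds cells of both strains. The drugs of the intratumoral (IT) route were dissolved in DMSO, which CTRL_IT received alone, and those of the intraperitoneal (IP) route in saline. CTRL_IT (4 tumors) and PTX_IT (3 tumors, PTX at 60 mg/kg) complete the IT route, and MIX_IP and NCTD_IP (2 tumors each) are the same pair of treatments by the IP route. CTRL_IP (saline alone) and PTX_IP (PTX at 60 mg/kg), with 2 tumors each, complete the IP route. In bulk tumor RNA, fewer cells of a type and less RNA per cell cannot be told apart.

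NCTD, a demethylated form of cantharidin, inhibits the serine/threonine phosphatases PP1 and PP2A, which remove phosphate groups that kinases place on signaling, cell cycle and splicing proteins. PTX is a methylxanthine that inhibits phosphodiesterases, so that cyclic AMP is degraded more slowly, and it is known for lowering the production of tumor necrosis factor by macrophages. In melanocytic cells, cyclic AMP acts through the transcription factor CREB on Mitf, the master regulator of pigment genes.

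Between 2861578 and 5711770 reads per NCTD_IT tumor and between 4128535 and 6559840 per MIX_IT tumor were counted on genes, so that the floor of 3 counts lay between 0.475 and 1.08 CPM (counts of a gene scaled to a common library size after TMM normalization). Melanocytic markers were abundant in all 8 tumors, from 16300 to 30100 CPM summed over 7 genes. The sex-linked genes separated the groups completely. Xist, the X-linked RNA of female cells, was at 5.38 to 13.8 CPM in NCTD_IT and had no counts in MIX_IT, and 4 Y-linked genes summed to 13.4 to 54.7 CPM in MIX_IT and to at most 0.611 CPM in NCTD_IT. The methods describe the groups as sex-matched, but in these libraries the sex of the host and the addition of PTX cannot be told apart. MIX_IT tumor 23 stood apart from the other IT libraries, with a median correlation of 0.864 against 0.895 to 0.943, and had the highest fibroblast markers. NCTD_IT tumor 18 had the highest neutrophil and muscle markers.

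No gene passed the test between MIX_IT and NCTD_IT. With edgeR's quasi-likelihood test on the 15 IT tumors, 0 of 12066 genes (0%) had a Benjamini-Hochberg adjusted p below 0.05, and the smallest adjusted p was 0.274. An unadjusted p below 0.05 was reached by 729 genes (6.04%), 351 with higher (2.91%) and 378 with lower (3.13%) values in MIX_IT. The 4 MIX_IT values did not overlap the 4 NCTD_IT values in 355 genes (2.94%), all above in 155 (1.28%) and all below in 200 (1.66%). The median log2 fold change over all genes was -0.0024, and 49.7% of the fold changes were above 0. DESeq2 on the same 8 tumors gave 6 genes, Rps18-ps3, Gm8623, Pim1, Ftl1, Gm10800 and Dock2, with an adjusted p below 0.05, all lower in MIX_IT, and 593 genes with an unadjusted p below 0.05. Gm8623, Pim1 and Dock2 are named after their values were seen. The group label accounted for 15.3% of the squared distance between the 8 tumors, against an average of 14.3% over the 70 ways to split them, and an exact one-sided permutation test gave p = 0.286, where 0.0286 is the smallest p possible. Fold changes are log2 values of MIX_IT over NCTD_IT from the edgeR fit, each with its standard error (SE). A p that misses the threshold does not show that values did not differ.

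Rps18-ps3 and Ftl1, which had the 2 smallest p of the comparison, each share most of their sequence with another locus. Rps18-ps3 is a processed pseudogene (chr8:107989425-107989880, minus strand, GRCm39) of Rps18, which encodes a protein of the small ribosomal subunit. It equals the Rps18 coding sequence in 453 of 456 bases (99.3%). Ftl1 (chr7:45107368-45109308, minus strand) encodes the light chain of ferritin, the iron store of the cell, and its coding sequence equals that of the copy Ftl1-ps1 in 547 of 549 bases (99.6%). A stretch of 120 bases of each parent gene and its copy is shown, so that the few letters that set them apart can be seen, bases 324 to 443 of the Rps18 and bases 408 to 527 of the Ftl1 coding sequence, read from GRCm39. Capitals mark bases that differ from the parent gene. The stretch of Rps18-ps3 lies at chr8:107989438-107989557 on the minus strand.
Rps18: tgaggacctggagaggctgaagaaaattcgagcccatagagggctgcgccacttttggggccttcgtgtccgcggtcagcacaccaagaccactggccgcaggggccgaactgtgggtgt
Rps18-ps3: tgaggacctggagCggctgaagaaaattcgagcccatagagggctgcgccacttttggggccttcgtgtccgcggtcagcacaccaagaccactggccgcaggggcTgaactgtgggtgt
Ftl1: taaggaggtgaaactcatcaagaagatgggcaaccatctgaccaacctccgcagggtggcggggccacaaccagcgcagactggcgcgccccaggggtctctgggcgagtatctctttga
Ftl1-ps1: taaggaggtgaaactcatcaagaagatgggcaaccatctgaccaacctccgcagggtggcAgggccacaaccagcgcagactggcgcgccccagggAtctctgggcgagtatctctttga

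Rps18-ps3 read 173, 86.5, 310.1 and 91.4 CPM in the NCTD_IT tumors and 30.9, 19, 25 and 17.7 CPM in the MIX_IT tumors. The groups did not overlap, and the fold change was -2.84 (SE 0.49) on the log2 scale, with the smallest adjusted p of the comparison, 0.274 in edgeR (8.81e-09 in DESeq2 on the 2 groups). In CTRL_IT, Rps18-ps3 read 39.3, 90.4, 221 and 72 CPM, which overlaps NCTD_IT. In PTX_IT it read 38.1, 41.7 and 28.5 CPM, which overlaps MIX_IT. The parent gene was not lower in MIX_IT. Rps18 had values of 1637, 1275, 1938 and 1247 CPM in NCTD_IT and 2447, 2234, 1469 and 1740 CPM in MIX_IT, which overlap. Rps18 and its 7 copies in the table, summed, were at 2010, 1560, 2470 and 1590 CPM in NCTD_IT and 2610, 2410, 1640 and 1910 CPM in MIX_IT, a range that again overlaps. A second copy, Rps18-ps5, was lower in all 4 MIX_IT tumors, at 134, 154, 139 and 153 CPM against 196, 194, 216 and 247 CPM. Because the treatment of reads that fit several places is not given in the sources used here, the values of single copies are uncertain.

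Ftl1 was high in 3 of the 4 NCTD_IT tumors and not in the other tumors of the series. Its values were 34.3, 2072, 353 and 4812 CPM in NCTD_IT and 36.6, 60.1, 12.9 and 58 CPM in MIX_IT, and the 19 tumors outside NCTD_IT lay between 12.9 and 92 CPM. Tumor 17 of NCTD_IT falls within the MIX_IT range, so the groups overlap. The fold change was -5.43 (SE 1.02) on the log2 scale, and edgeR gave an adjusted p of 0.373. Without tumor 17 the adjusted p became 0.00968, in that fit the single gene below 0.05. Ftl1-ps1 did not follow, with 40.7, 26, 67.4 and 27.9 CPM in NCTD_IT and 57, 64.1, 44.4 and 79.7 CPM in MIX_IT. The heavy chain gene Fth1, named after its values were seen, was at 1180, 1170, 977 and 1690 CPM in NCTD_IT and 1620, 2410, 872 and 1920 CPM in MIX_IT, with overlap.

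5 gene models, Gm10800 and Gm10801 on chromosome 2 and Gm10722, Gm11168 and Gm10718 on chromosome 9, hold the major satellite, the tandem repeat that packs the heterochromatin beside mouse centromeres. A stretch of 120 bases of Gm10800 is shown with the best match in each of the other models, in the GRCm39 genome, so that the shared repeat can be seen. Capitals mark bases that differ from Gm10800, which were 4 or 5 of 120 (95.8 to 96.7% identity). Gm10800 is given at chr2:98497012-98497131 on the plus strand, Gm10801 at chr2:98492680-98492799, Gm10722 at chr9:3001390-3001509, Gm11168 at chr9:3006709-3006828 and Gm10718 at chr9:3024512-3024631, the last 4 on the minus strand. These models share sequence, so their counts are not independent of each other.
Gm10800: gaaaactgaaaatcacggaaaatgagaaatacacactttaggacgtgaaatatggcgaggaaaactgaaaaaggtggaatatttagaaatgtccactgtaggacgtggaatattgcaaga
Gm10801: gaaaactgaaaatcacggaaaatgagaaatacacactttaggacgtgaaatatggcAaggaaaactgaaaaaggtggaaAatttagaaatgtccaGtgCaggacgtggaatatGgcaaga
Gm10722: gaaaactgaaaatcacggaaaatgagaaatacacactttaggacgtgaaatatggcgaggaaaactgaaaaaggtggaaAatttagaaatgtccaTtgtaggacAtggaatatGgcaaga
Gm11168: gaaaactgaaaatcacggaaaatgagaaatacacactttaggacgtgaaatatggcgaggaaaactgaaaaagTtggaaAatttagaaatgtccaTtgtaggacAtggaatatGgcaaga
Gm10718: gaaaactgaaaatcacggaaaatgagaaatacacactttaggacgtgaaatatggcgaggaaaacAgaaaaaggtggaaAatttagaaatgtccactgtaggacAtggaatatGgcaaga

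The satellite models had lower values in MIX_IT. Gm10800 had 1503, 2357, 2904 and 1132 CPM in NCTD_IT and 348, 499, 1032 and 220.3 CPM in MIX_IT, with no overlap, a log2 difference of -1.91 (SE 0.43) and an adjusted p of 0.809 in edgeR and 0.0179 in DESeq2 on the 2 groups. The log2 fold changes of Gm10722 and Gm11168 were -1.94 (SE 0.48) and -1.90 (SE 0.47). The 5 models together summed to 1590, 2520, 3090 and 1210 CPM in NCTD_IT and 371, 531, 1100 and 234 CPM in MIX_IT, and MIX_IT tumor 23 was the highest of its group. Outside this pair, the sums were 287, 256, 414 and 223 CPM in CTRL_IT and 1330, 2010 and 761 CPM in PTX_IT, so that the NCTD_IT and PTX_IT values, from tumors with Xist, lay above those of CTRL_IT, from tumors with Y-linked reads. The part of host sex in this difference was not tested within the IT route. Reads on ribosomal RNA genes made up 2.42, 2.28, 1.53 and 2.09% of counts in NCTD_IT and 1.24, 1.41, 2.51 and 1.05% in MIX_IT. They made up 2.06, 2.15 and 0.872% in PTX_IT and 1.29, 1.05, 1.16 and 1.1% in CTRL_IT. The mitochondrial ribosomal RNA genes are included in this share. NCTD_IT tumor 19, with the highest satellite sum of its group, had the lowest such share there. That tumor also had the lowest share of counts on the mitochondrial genome, 2.47% against 4.18 to 6.32% in the rest of NCTD_IT. The part of either share in the satellite values was not tested. By the IP route, NCTD_IP tumor 6, which had Y-linked reads and no Xist counts, had a sum of 3350 CPM and NCTD_IP tumor 5 a sum of 90.6 CPM.

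**Figure D1:**
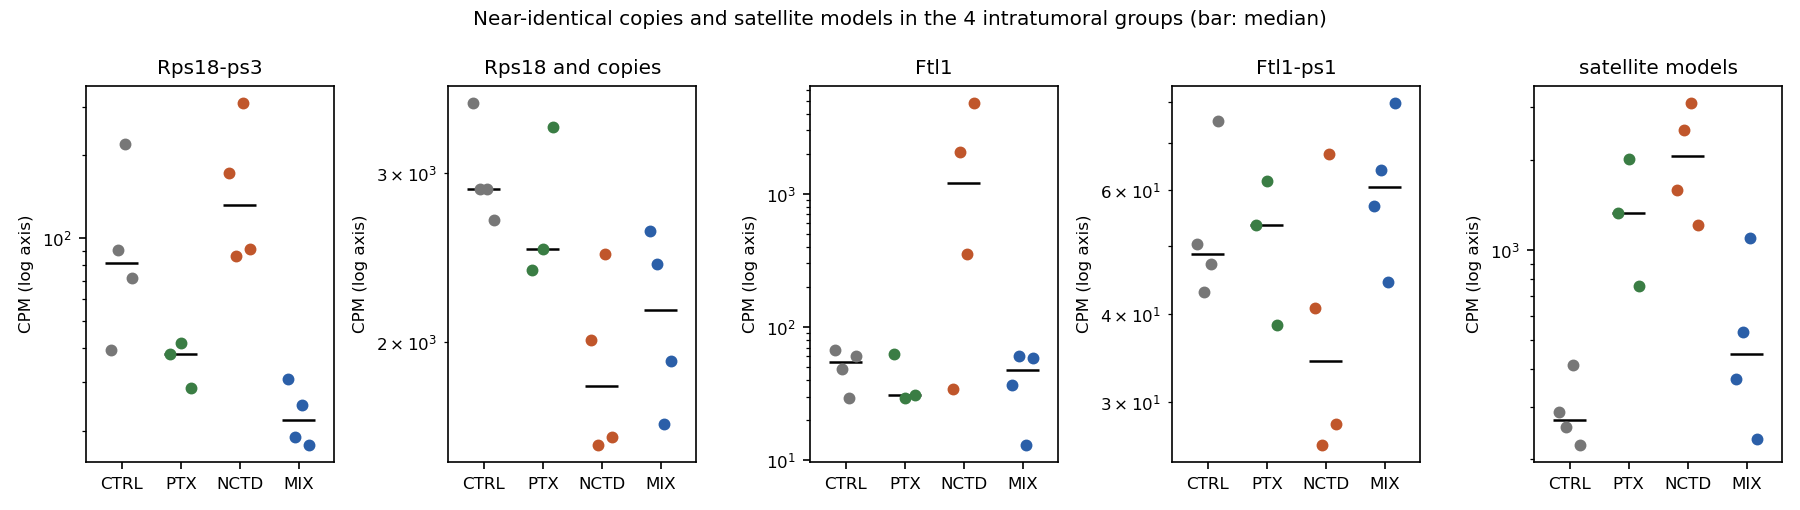
CPM on log axes of Rps18-ps3, Rps18 with its copies, Ftl1, Ftl1-ps1 and the sum of the 5 satellite models in each tumor of CTRL_IT, PTX_IT, NCTD_IT and MIX_IT (points) with group medians (bars). Rps18-ps3 and the satellite sum separate NCTD_IT from MIX_IT, while Rps18 with its copies overlaps and Ftl1 is high in 3 NCTD_IT tumors.

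The 10 protein-coding genes of smallest p with higher values in MIX_IT all had an adjusted p of 0.809 in edgeR. Uqcr10 (chr11:4651973-4654342, minus strand), a small subunit of respiratory complex III, was at 373, 393, 504 and 453 CPM in NCTD_IT and 895, 608, 528 and 809 CPM in MIX_IT, a log2 fold change of 0.72 (SE 0.18). Atp5o, a stalk subunit of ATP synthase, was at 1318, 1421, 1675 and 1142 CPM and 2345, 1778, 2011 and 2067 CPM in the same order, a log2 fold change of 0.56 (SE 0.16). Neither gene's groups overlapped. Etfrf1, a regulator of the electron transfer flavoprotein, read 17.5, 14.7, 23.7 and 19.3 CPM in NCTD_IT and 34, 25.2, 31 and 41.2 CPM in MIX_IT, a log2 fold change of 0.81 (SE 0.20). Supv3l1, the mitochondrial RNA helicase, had a log2 fold change of 0.96 (SE 0.26), and its values met at 13.6 CPM in NCTD_IT tumor 19 and 13.6 CPM in MIX_IT tumor 22.

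Morf4l1 (chr9:89973718-89996827, minus strand), a subunit of histone acetyltransferase and deacetylase complexes, had the smallest p of the higher genes, 0.000247 before adjustment. It was at 96.3, 114, 121 and 103 CPM in NCTD_IT and 135, 178, 256 and 193 CPM in MIX_IT, with no overlap and a log2 fold change of 0.82 (SE 0.17). Fancf, an adaptor of the Fanconi anemia complex that repairs DNA crosslinks, was at 1.61, 0.917, 2.15 and 2.98 CPM in NCTD_IT and 5.26, 5.06, 16.1 and 6.47 CPM in MIX_IT, where tumor 23 was far above the other 3. Ldhb, the lactate dehydrogenase subunit that favors the step from lactate to pyruvate, read 176, 85, 151 and 183 CPM and then 387, 231, 195 and 332 CPM, a log2 fold change of 0.94 (SE 0.26) without overlap. Bloc1s5, a subunit of a complex for the biogenesis of melanosomes and other lysosome-related organelles, had a log2 fold change of 0.75 (SE 0.19), and Tstd3 of 0.59 (SE 0.16), both without overlap. Col6a2, a chain of collagen VI, completed the 10, at 6.25, 6.42, 11.8 and 5.97 CPM in NCTD_IT and 26.5, 12, 62.8 and 10.7 CPM in MIX_IT. Of the other kinds of genes, Stamos, Gm44220 and Gm12715 were at 0.893, 1.22, 0.717 and 1.36 CPM, 0.536, 0, 0 and 0 CPM and 0.536, 2.75, 0.358 and 0.543 CPM in NCTD_IT and 5.70, 3.80, 2.77 and 3.23 CPM, 0.438, 1.11, 3.53 and 4.43 CPM and 4.38, 2.06, 16.6 and 2.89 CPM in MIX_IT.

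On the lower side, Cep170 (chr1:176561219-176641633, minus strand), a protein of centrioles and spindle microtubules, was at 90.4, 98.7, 77.1 and 85.5 CPM in NCTD_IT and 41.8, 46.2, 42.8 and 65.5 CPM in MIX_IT, a log2 fold change of -0.84 (SE 0.19) with no overlap. Zswim6 was also lower without overlap, at 28, 35.6, 27.7 and 25.5 CPM against 46.1, 52.3, 39.8 and 60.2 CPM. The other 3 lower genes are known from myeloid and other immune cells. Ly86, which encodes the MD-1 partner of a toll-like receptor homolog on immune cells, was at 4.11, 11.6, 1.79 and 4.34 CPM in NCTD_IT and 0, 0.158, 0 and 0.34 CPM in MIX_IT, where every tumor was below its floor of 3 counts. At so few counts a fitted fold change depends on the prior count of the fit and is no measure of size. S100a8 and S100a9, the calprotectin subunits of neutrophils, had log2 fold changes of -4.05 and -4.68, which became -0.97 and -0.77 without NCTD_IT tumor 18. That tumor had 307 and 789 CPM, against at most 16.5 and 26.5 CPM in the other 3. The other kinds of lower genes besides Rps18-ps3 were Gm48182, at 7.86, 18.9, 14 and 8.68 CPM in NCTD_IT and 5.26, 2.69, 1.26 and 3.23 CPM in MIX_IT, and 9430007M09Rik, at 2.68, 2.75, 3.23 and 0.543 CPM and 0, 0.475, 0 and 0 CPM.

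**Figure D2:**
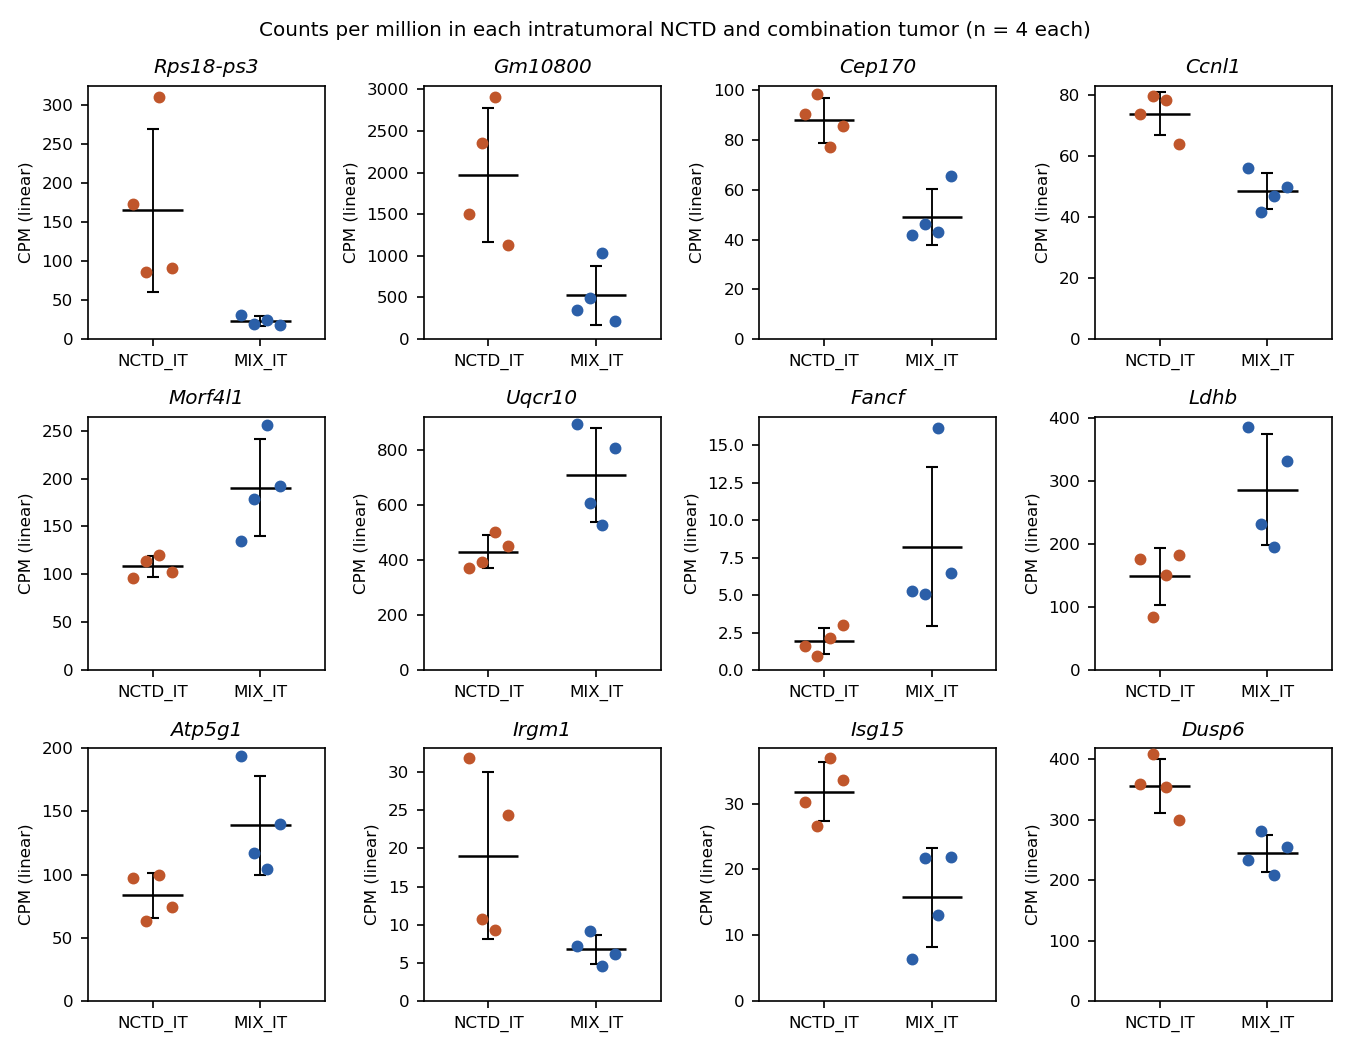
CPM on linear axes from 0 of 12 named genes in each of the 4 NCTD_IT tumors (orange) and the 4 MIX_IT tumors (blue), with the mean and SD of each group. Rps18-ps3, Gm10800, Cep170, Ccnl1, Irgm1, Isg15 and Dusp6 are lower and Morf4l1, Uqcr10, Fancf, Ldhb and Atp5g1 higher in all 4 MIX_IT tumors.

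Genes of inflammation had lower values in MIX_IT nearly throughout, although 0 of their members passed the adjusted test. Of 26 tested members of the TNF and NF-kappa B list, 25 had a log2 fold change below 0, with a median of -0.68 against -0.0024 over all genes, 49.7% of which were above 0. An unadjusted p below 0.05 was reached by 3 members, all lower, against 3.13% of all genes. Cxcl2, a chemokine that attracts neutrophils, was at 44.5, 1322, 82.1 and 38.5 CPM in NCTD_IT and 39.2, 63.8, 70.8 and 18.9 CPM in MIX_IT, and Il1b, the cytokine interleukin-1 beta, at 23.2, 862, 44.1 and 47.2 CPM and 23, 71.7, 8.32 and 30.8 CPM. Both overlap, and their log2 fold changes of -2.95 and -2.85 became -0.19 and -0.17 without tumor 18, the highest for both. Nfkbiz, a nuclear inhibitor of kappa B protein, had a log2 fold change of -0.62 (SE 0.29), or -0.34 without tumor 18. Without tumor 18 the list median was -0.40, with 23 of 26 members below 0 and 0 at an unadjusted p below 0.05.

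Interferon response genes, which cells turn on after interferon signaling, followed the same direction in 30 of 31 members, with a median log2 fold change of -0.61. An unadjusted p below 0.05 was reached by 2 members, both lower, against 3.13% of all genes, and 3 members had lower values without overlap, against 1.66% of all genes. These 3 were Irgm1, Isg15 and Oas2. Irgm1, a GTPase that acts on intracellular pathogens, was at 31.8, 10.7, 9.32 and 24.4 CPM in NCTD_IT and 7.23, 9.18, 4.54 and 6.13 CPM in MIX_IT. Isg15, a ubiquitin-like modifier, read 30.2, 26.6, 36.9 and 33.6 CPM and 6.35, 21.7, 13.1 and 22 CPM, and Oas2, which makes the messenger that activates RNase L, read 11.8, 11, 12.6 and 15.7 CPM and 3.51, 6.64, 1.76 and 5.79 CPM. In all 3 genes each MIX_IT tumor was below each NCTD_IT tumor. Summed over the whole list, where abundant members weigh most, the tumors overlapped, at 5390, 3310, 4650 and 8460 CPM in NCTD_IT and 2330, 6270, 884 and 5580 CPM in MIX_IT. Within MIX_IT, tumors 21 and 23 were low and tumors 22 and 24 within the NCTD_IT range. The median was -0.33 without tumor 23 and -0.99 without tumor 22.

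Antigen presentation genes were divided in the same way between the MIX_IT tumors. Of 17 MHC class I members 16, and of 8 class II members 8, were below 0, with medians of -0.53 and -0.53. H2-T23, a nonclassical class I molecule, was at 102, 33, 11.5 and 121 CPM in NCTD_IT and 9.42, 30.7, 5.04 and 7.15 CPM in MIX_IT, a log2 fold change of -2.34 (SE 0.90), and H2-Q7 and the peptide-loading protein Pdia3 had -2.41 and -0.62. The class II chain H2-Aa ranged from 712 to 4737 CPM in NCTD_IT and from 20.9 to 3216 CPM in MIX_IT, a log2 fold change of -0.72 (SE 1.25). H2-Ab1 and the protease Ctss, which trims the invariant chain, had -0.81 and -0.98. The median of the class I list was -0.21 without MIX_IT tumor 23 and -0.82 without MIX_IT tumor 22. The median of the class II list went from -0.53 to 0.19 when NCTD_IT tumor 20, its highest tumor, was left out, and to -1.30 without MIX_IT tumor 22.

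Since the sex-linked genes separate the groups completely, a fit with Xist as a covariate compares the groups at an Xist level that they do not share. In that fit the median log2 fold change of the TNF and NF-kappa B genes was 1.05, of the interferon genes 1.51, of MHC class II genes 4.99, of immediate early genes 0.47, of nuclear-encoded oxidative phosphorylation -0.013 and of cell cycle genes -1.15, all of the opposite sign to the fit without it. Because MIX_IT had no Xist counts, the values of that fit are extrapolated, and no conclusion is drawn from them. The directions of these lists in the fit without Xist describe the groups as they are, and host sex and PTX cannot be told apart in them.

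**Figure D3:**
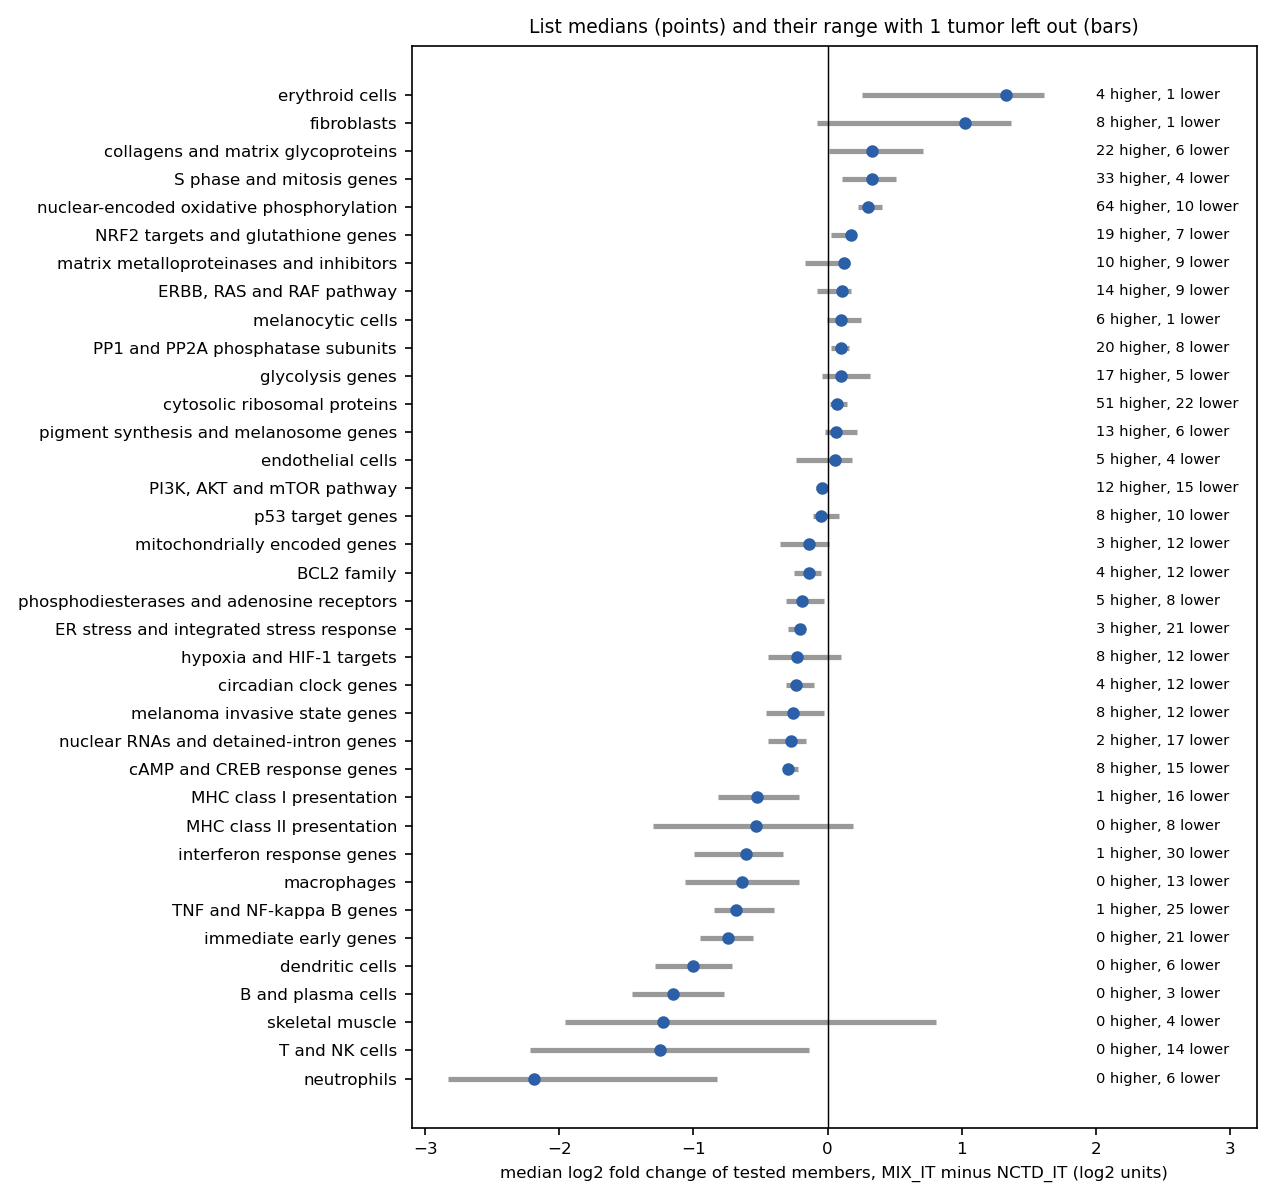
Median log2 fold change, MIX_IT minus NCTD_IT, of the tested members of each gene list with at least 3 of them (points), with the lowest and highest median when 1 of the 8 tumors was left out (bars) and the numbers of members above and below 0. Lists of immune cells, inflammation and immediate early genes lie below 0 and nuclear-encoded oxidative phosphorylation and cell cycle genes above it.

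Markers of immune cells were lower in MIX_IT as well, with 0 members past the adjusted test. The T and NK cell list had 14 of 14 tested members below 0, macrophages 13 of 13, dendritic cells 6 of 6, B and plasma cells 3 of 3 and neutrophils 6 of 6. Their medians were -1.25, -0.64, -1.0, -1.15 and -2.19 in this order. T and NK cell markers summed to 258, 134, 79.6 and 670 CPM in NCTD_IT and 29.6, 293, 15.6 and 163 CPM in MIX_IT, which overlap, as do the macrophage sums of 2250, 2210, 1600 and 4740 CPM and 1800, 3500, 1290 and 2060 CPM. Tumors 21 and 23 of MIX_IT had the lowest T cell sums of the 8 and tumor 20 of NCTD_IT the highest, and without tumor 20 the medians were -0.14 for T and NK cells and -0.21 for macrophages. Without MIX_IT tumor 22 they were -2.22 and -1.06.

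Neutrophil markers were at 60.0, 1290, 79.6 and 117 CPM in NCTD_IT and 28.7, 63.6, 40.3 and 43.9 CPM in MIX_IT, and tumor 18 stood far above all others. The list median was -0.83 without that tumor, with all 6 members still below 0. Of single markers, Cd2 of T cells was at 6.07, 3.67, 1.79 and 11.9 CPM in NCTD_IT and 0.219, 2.69, 0.252 and 1.70 CPM in MIX_IT. Cd3e and Trac, parts of the T cell receptor complex, had log2 fold changes of -2.15 and -1.52, and the macrophage genes Adgre1, Aif1 and Arg1 had -1.13, -1.14 and -1.03. Itgax, the CD11c integrin of dendritic cells, was lower in all 4 MIX_IT tumors, at 4.16, 5.38, 2.52 and 2.72 CPM against 14.8, 10.4, 7.53 and 14.9 CPM, while Clec10a and Zbtb46 overlapped, with log2 fold changes of -1.13 and -0.64, the latter -0.058 without tumor 18. The antibody genes Ighm, Jchain and Igkc had -1.40, -1.15 and -0.93, and the neutrophil receptor Il1r2 -2.63, which became -0.43 without tumor 18. Igkc was at -0.53 without NCTD_IT tumor 20, and Ighm at -0.84 without NCTD_IT tumor 17. The part of these cells in the lower inflammation lists was not tested.

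**Figure D4:**
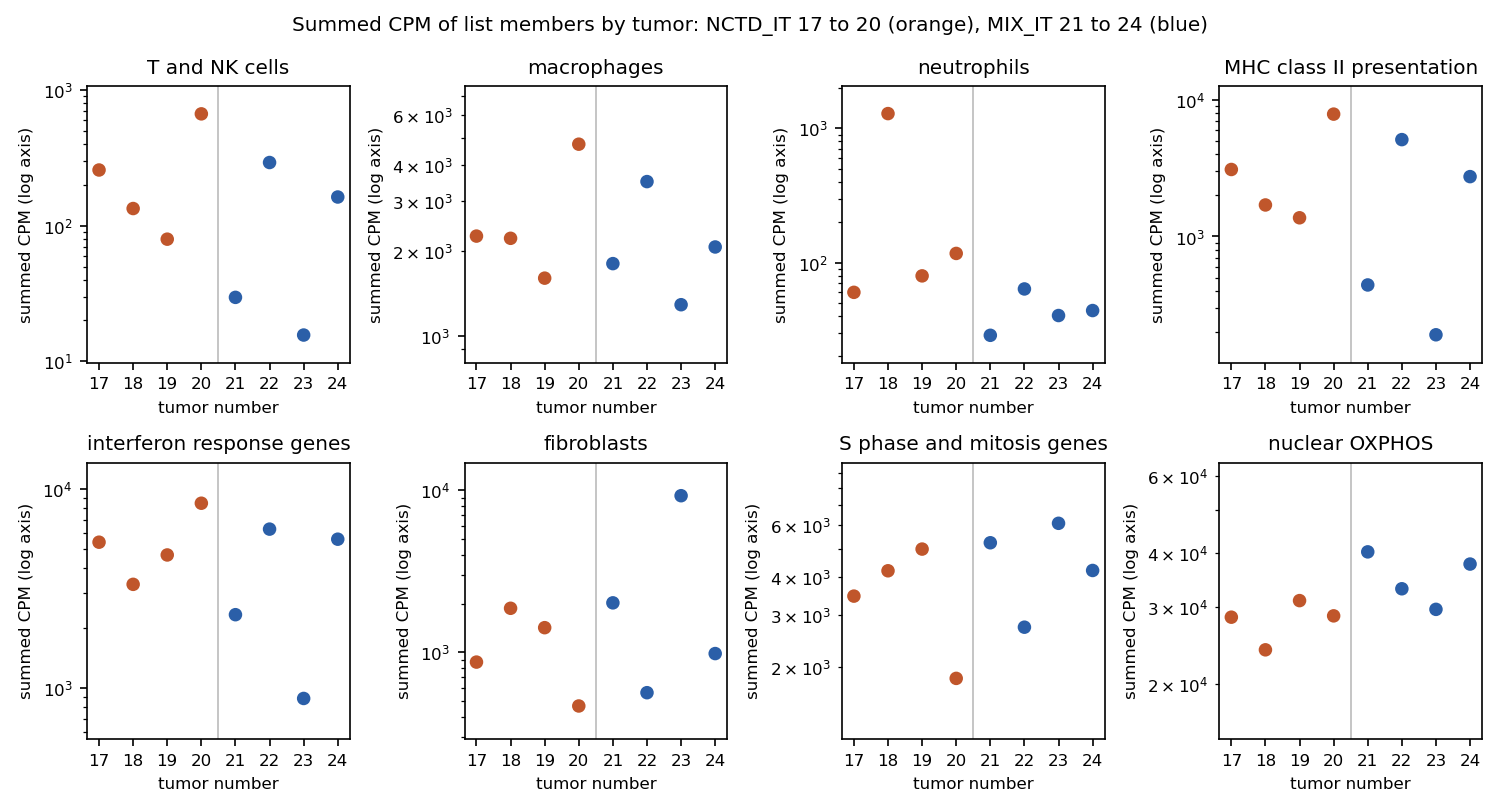
Summed CPM (log axes) of 8 gene lists in NCTD_IT tumors 17 to 20 (orange) and MIX_IT tumors 21 to 24 (blue). Tumor 18 stands out for neutrophil markers and tumor 23 for fibroblast markers, tumors 21 and 23 are low for T cell and MHC class II genes, and the nuclear OXPHOS sums are highest in tumors 21 and 24.

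Genes that respond to stimulation within minutes pointed one way. Of 21 immediate early genes, all 21 had a log2 fold change below 0, with a median of -0.75, and 4 had an unadjusted p below 0.05, against 3.13% of all genes with lower values at that p. Dusp1, the phosphatase that ends MAP kinase signaling, was at 46.6, 187, 33.7 and 86.3 CPM in NCTD_IT and 29.1, 33.9, 43.9 and 36.6 CPM in MIX_IT, a log2 fold change of -1.30 (SE 0.41). Ier2 and Zfp36, which shortens the life of cytokine messages, had -0.51 (SE 0.20) and -1.01 (SE 0.39). All 3 overlap between the groups. Tumor 18 was the highest for each of them, and without it the list median was -0.58, with 1 member at an unadjusted p below 0.05. The cAMP and CREB response list, which shares Dusp1, had 15 of 23 members below 0 and a median of -0.30. Its member Ppargc1a, a coactivator of mitochondrial genes, had higher values, at 103, 79.5, 190.4 and 115 CPM in NCTD_IT and 389, 108, 180.2 and 194 CPM in MIX_IT with an overlap, and Akap12, a scaffold of protein kinase A, had -0.98 (SE 0.39).

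The list of phosphodiesterases and adenosine receptors, which includes targets of PTX, was mostly at low levels, and 13 of 24 members could be tested. Their median log2 fold change was -0.19 (between -0.31 without MIX_IT tumor 23 and -0.028 without NCTD_IT tumor 20), with 5 members above and 8 below 0. Pde4b, the phosphodiesterase linked to inflammatory signaling, was at 40.9, 89.2, 61 and 67.3 CPM in NCTD_IT and 44.7, 39.6, 50.7 and 40.7 CPM in MIX_IT, with an overlap between the groups, and Pde5a and Pde6d had log2 fold changes of 0.93 (SE 0.47) and 0.42 (SE 0.20). The PP1 and PP2A list, which holds the targets of NCTD, also includes related phosphatases and regulators of PP2A. Of its members, 20 of 28 were above 0 with a median of 0.099. An unadjusted p below 0.05 was reached by 2, both with lower values, against 3.13% of all genes. These were Ppp1r15a, the stress-induced subunit that directs PP1 to the translation factor eIF2 alpha, at 8.21, 25.1, 8.25 and 11.7 CPM in NCTD_IT and 5.92, 4.90, 2.52 and 9.19 CPM in MIX_IT, and Ppp1r10, a nuclear PP1 partner, with a log2 fold change of -0.48 (SE 0.21). Ppme1, the methylesterase of PP2A, had -0.36 (SE 0.20).

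Nuclear-encoded genes of oxidative phosphorylation had higher values in MIX_IT. Of 74 members tested, 64 had a log2 fold change above 0, with a median of 0.30, and 17 had an unadjusted p below 0.05, all higher, where 2.91% of all genes did. The median lay between 0.22 and 0.40 with each of the 8 tumors left out, but the number at an unadjusted p below 0.05 among the higher members was 6 without MIX_IT tumor 21, 8 without NCTD_IT tumor 18, 11 without MIX_IT tumor 24 and 39 without MIX_IT tumor 23. Atp5g1, a subunit of the rotating ring of ATP synthase, was at 97.1, 63.6, 100 and 74.3 CPM in NCTD_IT and 194, 118, 104 and 140.1 CPM in MIX_IT, a log2 fold change of 0.73 (SE 0.21) with no overlap, beside Uqcr10 and Atp5o above. Summed over the list, the tumors were at 28500, 24000, 31100 and 28700 CPM in NCTD_IT and 40200, 33100, 29700 and 37700 CPM in MIX_IT, with tumor 23 inside the NCTD_IT range. The mitochondrially encoded genes had 12 of 15 below 0 and a median of -0.14, and the count moved when single tumors were left out. Without NCTD_IT tumor 17 it was 7 of 15 with a median of 0.0096, without tumor 18 it was 8 of 15 with a median of -0.0083, and it was 15 of 15 without NCTD_IT tumor 19, with a median of -0.36, or without MIX_IT tumor 23, with a median of -0.26. Their levels varied widely within NCTD_IT, as in mt-Co1 with 2061, 2162, 804 and 1877 CPM in NCTD_IT and 1351, 1447, 1421 and 1259 CPM in MIX_IT, and mt-Rnr1 and mt-Nd6 had log2 fold changes of -0.56 and -0.33.

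S phase and mitosis genes were above 0 in 33 of 37 members, with a median of 0.33 and 1 at an unadjusted p below 0.05, against 2.91% of all genes. Ccne1, the cyclin that starts S phase, was at 26.1, 38.8, 40.2 and 15.2 CPM in NCTD_IT and 57.4, 30.2, 50.4 and 45.6 CPM in MIX_IT, and Ccnb2 and Rrm2, of mitosis and nucleotide synthesis, had log2 fold changes of 0.68 (SE 0.34) and 0.67 (SE 0.36). All 3 overlap. NCTD_IT tumor 20 was the lowest for each of the 3, and without it the list median was 0.11. Cytosolic ribosomal proteins had a median of 0.071 with 0 of 73 at an unadjusted p below 0.05. Rpl37a, a member of the large subunit, had 0.61 (SE 0.34), or 0.18 without MIX_IT tumor 24, and Rps24 -0.22 (SE 0.14). Glycolysis genes had a median of 0.099, 17 of 22 above 0, but -0.041 with 10 of 22 above 0 without MIX_IT tumor 22 and 0.31 without MIX_IT tumor 23. The lactate exporter Slc16a3 had -0.90 (SE 0.42), or -0.28 without tumor 18, and Hk2, the first enzyme of the pathway in many tumors, -0.46 (SE 0.31).

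Stromal genes were highest in 1 tumor, MIX_IT tumor 23. Collagens and matrix glycoproteins had 22 of 28 members above 0, a median of 0.33 and 7 members at an unadjusted p below 0.05, all higher, against 2.91% of all genes. The fibroblast markers had 8 of 9 above 0 and a median of 1.02. Col1a1, the main chain of collagen I, was at 416, 1007, 726 and 226 CPM in NCTD_IT and 1077, 275, 4842 and 526 CPM in MIX_IT. Tumor 23 is far above the other 7, and the groups overlap. Col1a2, Col3a1, Col6a1 and Col6a3 had log2 fold changes of 1.73, 1.51, 1.62 and 1.98 with the same tumor highest. Without tumor 23 the medians were 0.0068 (1 member at an unadjusted p below 0.05) for the matrix and -0.078 for the fibroblast list, and without NCTD_IT tumor 18 they were 0.71 and 1.35. Fibroblast markers summed to 871, 1870, 1420 and 467 CPM in NCTD_IT and 2020, 564, 9250 and 983 CPM in MIX_IT.

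The matrix metalloproteinases and their inhibitors, which remodel the extracellular matrix, had 10 of 19 members above 0 and a median of 0.12, which was -0.17 without MIX_IT tumor 22. Mmp12, the elastase of macrophages, was at 35.5, 92.9, 17.9 and 37.7 CPM in NCTD_IT and 7.23, 22.6, 6.30 and 15.7 CPM in MIX_IT, a log2 fold change of -1.81 (SE 0.50) with an overlap. Mmp14, which activates other members on the cell surface, had 0.47 (SE 0.21) and the urokinase receptor Plaur -0.90 (SE 0.41). Endothelial markers had a median of 0.056, or -0.24 without MIX_IT tumor 23, and Tie1, Flt1 and Esam had 1.29, -0.33 and -0.46. Erythroid genes were at a median of 1.33, where MIX_IT tumor 22 had 1271 CPM of Hba-a1 against 48.9 to 246 CPM in NCTD_IT. Without that tumor the median was 0.26. Hba-a2 and Hbb-bt had 1.5 and 1.33.

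Few members of the keratinocyte, skeletal muscle and adipocyte lists could be tested (2, 4 and 2), with medians of -1.42, -1.23 and 0.38. Muscle markers summed to 9.46, 311, 26.2 and 31.7 CPM in NCTD_IT and 106, 66, 7.06 and 9.87 CPM in MIX_IT, and the muscle median turned to 0.80 without tumor 18. The adipocyte median turned to -0.11 without MIX_IT tumor 23. The muscle genes Acta1, Tnni2 and Actn3 had log2 fold changes of -1.10, -1.48 and -1.36, the skin genes Dsp and Sfn -1.91 and -0.93, and the fat cell genes Fabp4 and Pparg 0.32 and 0.44.

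Melanocytic genes had medians near 0. Pigment synthesis and melanosome genes had 13 of 19 above 0 and a median of 0.06, and the 7 melanocytic markers a median of 0.10. These were -0.018 without NCTD_IT tumor 18 and -0.0048 without MIX_IT tumor 22, respectively. Gpnmb, a melanosome glycoprotein, was at 1993, 1698, 1702 and 1928 CPM in NCTD_IT and 2815, 2975, 1638 and 2592 CPM in MIX_IT, where tumor 23 was below the NCTD_IT range. Tyrp1, Slc45a2 and Sox10 had 0.27 (SE 0.19), 0.20 (SE 0.16) and 0.23 (SE 0.20). Mitf was at 440.4, 353, 618 and 449 CPM in NCTD_IT and 338, 387, 352 and 369 CPM in MIX_IT, a log2 fold change of -0.36 (SE 0.18) (unadjusted p = 0.0603, adjusted p = 0.809, edgeR). The invasive state list had a median of -0.26, and its members Zeb2 and Thbs1 had -0.53 (SE 0.19) and -1.37 (SE 0.57), the latter -0.41 without tumor 18. That list went to -0.034 without tumor 18 and to -0.46 without tumor 23.

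In the kinase pathways, Dusp6, the phosphatase that ERK induces and that inactivates ERK, was lower in all 4 MIX_IT tumors, at 234, 280.3, 208 and 255 CPM against 358, 408, 354 and 299.8 CPM, a log2 fold change of -0.54 (SE 0.18). Hras and Map2k2 of the same list had 0.54 (SE 0.24) and 0.40 (SE 0.18), and the list had a median of 0.11 with 14 of 23 above 0, or -0.077 without MIX_IT tumor 23. The PI3K, AKT and mTOR list had a median of -0.044. Its member Rictor, the defining subunit of mTOR complex 2, was at 92.1, 87.1, 83.2 and 78.1 CPM in NCTD_IT and 63.8, 57.1, 82.7 and 62 CPM in MIX_IT with an overlap, and Gsk3b and Pik3cg had -0.29 (SE 0.15) and -1.47 (SE 0.94). Of 12 genes taken from the larger set of proteins that the study stained or docked, the rest of which were not used here, Mitf is given above. Akt1, Mtor, Pik3ca, Hif1a, Mmp9 and Erbb2 had values above 0, at 0.43, 0.16, 0.12, 0.15, 0.15 and 0.34. Without MIX_IT tumor 23, Mmp9 was at -0.30 and Erbb2 at 0.0065, and Akt1 was at 0.19 and Mtor at 0.058 without MIX_IT tumor 21. Pik3ca was at 0.0079 without NCTD_IT tumor 19, and Hif1a at 0.054 without MIX_IT tumor 24. Braf, Nfkb1, Kit, Vegfa and Ptgs2 had values below 0, at -0.31, -0.51, -0.56, -0.63 and -1.67. Without NCTD_IT tumor 18, Kit was at -0.18, Vegfa at -0.08 and Ptgs2 at -0.13, and Braf was at -0.16 without MIX_IT tumor 21. The unadjusted p of the 11 genes other than Mitf was at least 0.075.

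Stress and survival lists had smaller medians. ER stress and integrated stress response genes were below 0 in 21 of 24 members, with a median of -0.21 that lay between -0.30 and -0.18 with each tumor left out. Atf4, the transcription factor that eIF2 alpha phosphorylation favors, was at 194, 254, 219 and 168 CPM in NCTD_IT and 157, 147, 154 and 159.7 CPM in MIX_IT, with no overlap and a log2 fold change of -0.44 (SE 0.20), and the ER protein Manf had -0.48 (SE 0.21). Nuclear RNAs and genes with detained introns were below 0 in 17 of 19, with a median of -0.27. Ccnl1, a cyclin that acts in splicing, was at 73.6, 79.5, 78.2 and 63.8 CPM in NCTD_IT and 55.9, 41.6, 46.9 and 49.7 CPM in MIX_IT, and the small RNA host gene Gas5 at 415, 402, 391 and 497 CPM and 231, 381, 301 and 325 CPM. Both are without overlap, and Snhg12 had -0.55 (SE 0.21).

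NRF2 targets and glutathione genes, which protect cells from oxidants, had 19 of 26 above 0 and a median of 0.17, or 0.025 without MIX_IT tumor 22. Slc7a11, the cystine importer, was at 9.82, 45.8, 15.1 and 8.95 CPM in NCTD_IT and 5.92, 9.02, 6.80 and 5.79 CPM in MIX_IT, with tumor 18 far above the rest (log2 fold change -1.52, or -0.70 without it), and Prdx6, a peroxidase, was higher without overlap, at 141, 137, 149 and 118 CPM against 98.9, 110.3, 107 and 105 CPM. The p53 targets had a median of -0.049, or 0.086 without NCTD_IT tumor 20. Ccng1 was higher in all 4 MIX_IT tumors, at 88.3, 83.7, 129.8 and 94.8 CPM against 61.1, 53.8, 76.4 and 83 CPM, and Tnfrsf10b and Gadd45a had 0.68 (SE 0.32) and -0.76 (SE 0.39), which were 0.35 without MIX_IT tumor 23 and -0.34 without NCTD_IT tumor 18. The BCL2 family, the regulators of mitochondrial apoptosis, had 12 of 16 below 0 and a median of -0.14, with 1.33 for Bax, -0.26 for Bnip3l and -0.77 for Bcl2a1b (-0.30 without NCTD_IT tumor 20). The family median was -0.046 without that tumor. Hypoxia targets had a median of -0.23, which became 0.098 without tumor 18, and Ndrg1, P4ha1 and Kdm3a had -0.88 (SE 0.33), -0.50 (SE 0.19) and -0.31 (SE 0.15). In the circadian list (median -0.24), Cry2 had 1.54 (SE 0.66), Per1 -0.83 (SE 0.55) and Rora -0.36 (SE 0.25).

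Whether PTX did the same with and without NCTD was asked by the difference of the 2 PTX steps, MIX_IT minus NCTD_IT and PTX_IT minus CTRL_IT, which share no tumor. The difference had an adjusted p below 0.05 in 0 of 12066 genes (0%) in edgeR's quasi-likelihood test and below 0.1 in 2 (0.0166%), Gm10800 and Gm10722. An unadjusted p below 0.05 was found for 1358 genes (11.3%), 576 with a higher (4.77%) and 782 with a lower (6.48%) step in the presence of NCTD. DESeq2 gave 19 genes at an adjusted p below 0.05, and edgeR gave 12 without PTX_IT tumor 16, 5 without MIX_IT tumor 23 and 1 without NCTD_IT tumor 20. Of all differences, 48.6% were above 0. The PTX step without NCTD had 0 genes (0%) at an adjusted p below 0.05 in edgeR and 765 (6.34%) at an unadjusted p below 0.05, 4.14% of all genes higher and 2.2% lower in PTX_IT, with 51.7% of all fold changes above 0. For Gm10800 the step was -1.91 with NCTD and 2.21 without it, a difference of -4.12 (SE 0.62) with an adjusted p of 0.0598. For Gm10722 it was -1.94 and 2.54. Over all 12066 genes, the signs of the 2 steps were the same in 37.1%, and their Spearman correlation across genes was -0.328, a description without a test, since genes are not independent. CTRL_IT tumors had Y-linked reads and PTX_IT tumors had Xist, so that the sex-linked genes differ in opposite directions in the 2 steps. The difference thus sets MIX_IT and CTRL_IT, with Y-linked reads, against NCTD_IT and PTX_IT, with Xist. Host sex and treatment cannot be told apart in either step or in their difference.

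Side by side, the lists mostly had opposite signs in the 2 steps. TNF and NF-kappa B genes were at -0.68 with NCTD and 0.43 without it, T and NK cells at -1.25 and 1.21, macrophages at -0.64 and 0.95, immediate early genes at -0.75 and 0.29, and MHC class II genes at -0.53 and 1.18. T and NK cell sums were 257, 369 and 18.8 CPM in PTX_IT and 7.81, 357, 60.2 and 36.7 CPM in CTRL_IT. Macrophage sums were 4700, 4140 and 1250 CPM and 1670, 3090, 2340 and 2040 CPM in the same order. Both overlap, with PTX_IT tumor 16 the lowest of its group for each. Nuclear-encoded oxidative phosphorylation was at 0.30 and -0.28, cell cycle genes at 0.33 and -0.31, and ribosomal proteins at 0.071 and -0.26. Fibroblast markers were above 0 in both, at 1.02 and 1.14. In the difference itself, 26 of 74 oxidative phosphorylation genes had an unadjusted p below 0.05, all with a higher step beside NCTD, against 4.77% of all genes. Of 21 immediate early genes, 9 did, all with a lower step beside NCTD, against 6.48% of all genes. Host sex and the drugs cannot be told apart in these counts. Of the single genes with the smallest p, Rnd2 had steps of 0.61 with and -1.07 without NCTD, Mrps22, a mitochondrial ribosomal protein, 0.65 and -1.10, and Atp5g1 0.73 and -0.65.

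**Figure D5:**
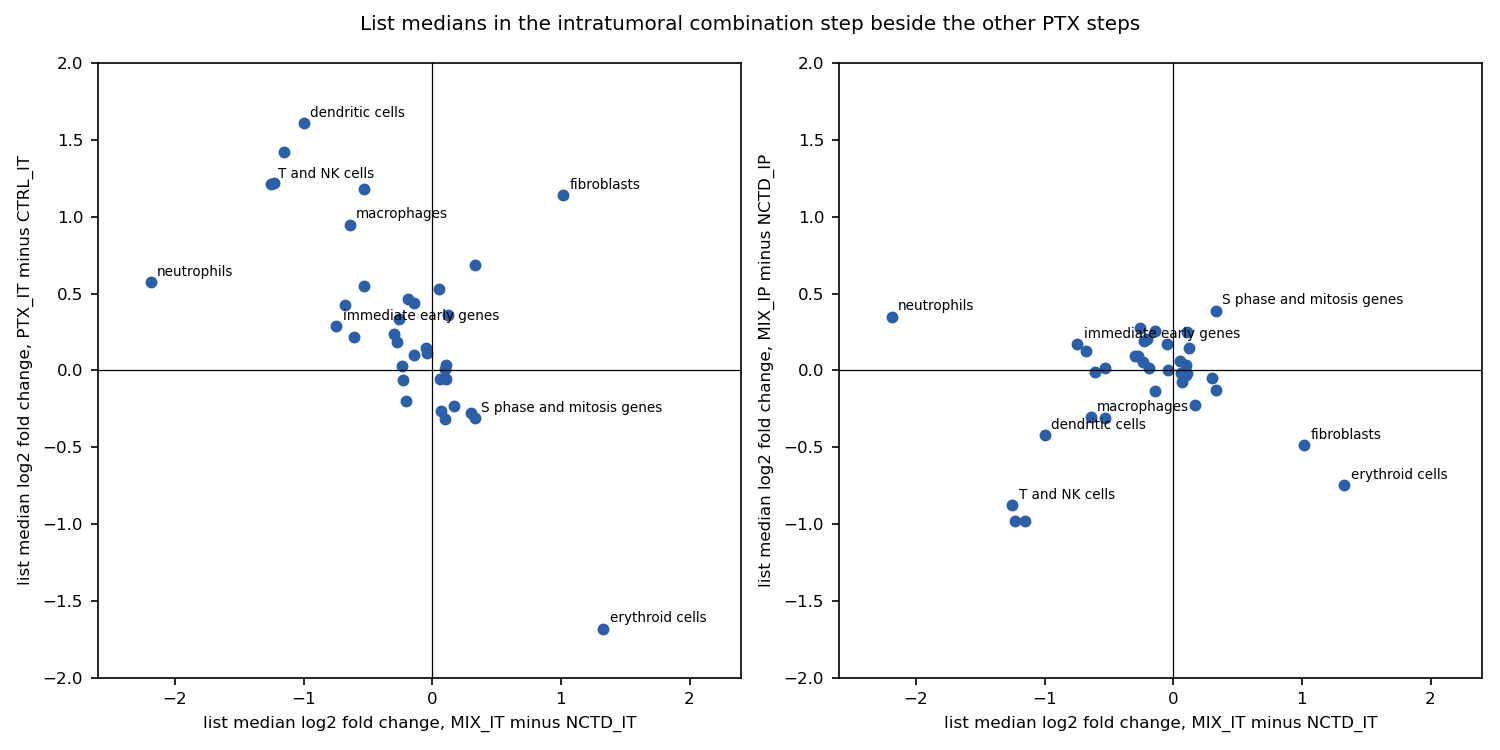
Median log2 fold change of each gene list in MIX_IT minus NCTD_IT (x axis) against PTX_IT minus CTRL_IT (left) and MIX_IP minus NCTD_IP (right). On the left, most immune lists lie at upper left and erythroid genes at lower right, while fibroblast markers are above 0 on both axes. On the right, T and NK cell markers are below 0 on both axes.

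By the IP route, where MIX_IP and NCTD_IP hold 2 tumors each and all 4 had Y-linked reads and no Xist counts, the same addition of PTX gave 0 of 12019 genes (0%) at an adjusted p below 0.05 in edgeR, 510 (4.24%) at an unadjusted p below 0.05, with higher values in 2.23% and lower in 2.01% of all genes, and 9 in DESeq2 on the 2 groups. Leaving out any 1 of the 4 tumors gave 1 to 3 genes in edgeR. Of all genes, 48.6% had a log2 fold change above 0. T and NK cell markers were below 0 in all 14 tested members, with a median of -0.88 against -1.25 by the IT route, and macrophage markers in 12 of 13, with -0.30. Cell cycle genes were above 0 in 35 of 37, with a median of 0.39 against 0.33. Some other lists were also below 0 by both routes, such as B and plasma cells at -0.98 by the IP and -1.15 by the IT route. MHC class II genes were at -0.31 and -0.53 in the same order. The lists that follow lay on the other side or close to 0. Immediate early genes were at 0.17, TNF and NF-kappa B genes at 0.12, interferon genes at -0.008, nuclear-encoded oxidative phosphorylation at -0.049 and fibroblast markers at -0.49. Over 11662 genes tested by both routes the Spearman correlation of the fold changes was 0.0452, a description without a test, and the signs were the same in 51%.

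The direct test of the difference between routes, in an edgeR model of all 23 tumors, gave 0 of 12962 genes (0%) at an adjusted p below 0.05, 493 (3.80%) at an unadjusted p below 0.05 (1.67% higher and 2.13% lower by the IT route, and 50.4% of all differences above 0) and 1 gene in DESeq2, Rps18-ps3. The sex-linked genes differed within the IT pair and not within the IP pair, and the routes used DMSO and saline. Route, solvent and host sex thus cannot be told apart in this difference. Rps18-ps3 was lower in MIX by the IT route and higher by the IP route, with log2 fold changes of -2.84 and 2.14. The adjusted p of its difference was 0.11 in edgeR. Rest, the repressor of neuronal genes, was at -0.67 by the IT and 0.75 by the IP route, the chromatin regulator Arid4b at -0.54 and 0.80, Prkag1, a subunit of the energy sensor AMPK, at 0.66 and -0.89, and Fancf at 2.08 and -1.03. The IP genes with the smallest p otherwise were Tshz1 and Tpr, at 1.21 and 0.89, and on the lower side AI506816, Nrxn2 and Gm11518, at -2.63, -2.17 and -3.13. By the IT route these 5 were at 0.0075, -0.34, -0.17, -0.10 and -0.20.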

How the data were processed

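Total RNA of each tumor was made into libraries with the Collibri 3′ mRNA kit. Per the submitters' processing notes and the methods, reads were checked with FastQC, trimmed with Trimmomatic, aligned to GRCm39 with STAR 2.7.11b, and the authors deposited raw counts of reads per gene. The strand setting, the handling of reads with several positions and molecular identifiers are not given in the sources used here. The labels give each tumor a number of its own but do not say that tumors came from separate experiments, so p-values measure the spread between these tumors. From the deposited counts, tests were run with edgeR 4.0.16 and DESeq2 1.42.0 (R 4.3.3). Genes of X and Y were removed, and filterByExpr (minimum count 10, minimum total 15) and TMM scaling were applied. All tests of genes were two-sided with Benjamini-Hochberg adjustment. They were tried on simulated data with the same spread for every gene and no outlying tumors, unlike the tumors here. That trial does not show how well the tests find differences in these tumors. The standard error is the fold change over the square root of F. Replicates differed by 20.3 to 64.6 chi-square per degree of freedom, and were kept as separate samples. Members and lists were chosen with earlier results of these data known. Text names the 10 protein-coding and 3 other genes of smallest p each way, the 3 tested members of smallest p in each of 38 lists, 12 genes of proteins the study stained or docked, and 3 genes each way in the other comparisons; 1 gene under this rule is not reported here. Floors cover counting error only, while the standard errors rest on the spread between tumors. Alternatives were DESeq2, its size factors, 2 groups alone, no filter, X and Y kept, protein-coding genes alone, other thresholds, Xist as covariate, and each tumor left out.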

Additional observations from a re-analysis of the deposited data

Results flagged for a closer look

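In 35 of 276 groups of 4 tumors, 1 tumor lay so far from the other 3 that Dixon's test at 95% marked it. Chance marks about 1 in 20 groups of independent, normally distributed values. CPM of selected genes in the same tumors are not such values, so no conclusion is drawn from the number marked. Where the other 3 values are all 0, any count is marked, as for Gm44220 and 9430007M09Rik. NCTD_IT tumor 18 was marked in 16 groups and MIX_IT tumor 23 in 6. Within MIX_IT, tumor 22 was marked more often than tumor 23. MIX_IT tumor 23 was marked for Fancf (16.1 CPM against 5.06 to 6.47), Gm12715 (16.6 CPM against 2.06 to 4.38), Gm11168 (11.8 CPM against 2.89 to 4.16), S100a9 (15.1 CPM against 5.54 to 6.13), Col6a3 (810 CPM against 35.6 to 82.6) and Col1a2 (2760 CPM against 127 to 475). NCTD_IT tumor 19 was marked for Col6a2 (11.8 CPM against 5.97 to 6.42) and mt-Rnr1 (568 CPM against 1300 to 1410). NCTD_IT tumor 17 was marked for Gm44220 (0.536 CPM against 0 to 0) and Tnfrsf10b (15 CPM against 7.53 to 8.68). NCTD_IT tumor 18 was marked for Gm12715 (2.75 CPM against 0.359 to 0.543), S100a8 (307 CPM against 4.34 to 16.5), S100a9 (789 CPM against 4.34 to 26.5), Cxcl2 (1320 CPM against 38.5 to 82.1), Il1b (862 CPM against 23.2 to 47.2), Nfkbiz (39.1 CPM against 19 to 22), Thbs1 (256 CPM against 35.5 to 68.4), Slc16a3 (51.3 CPM against 13.3 to 18.3), Slc7a11 (45.8 CPM against 8.95 to 15.1), Il1r2 (31.2 CPM against 1.08 to 3.57), Esam (31.2 CPM against 8.75 to 10.3), Tnni2 (37.6 CPM against 2.32 to 5.43), Actn3 (11.3 CPM against 0 to 0.271), Acta1 (214 CPM against 3.57 to 15.2), Pparg (0.917 CPM against 4.29 to 4.66) and Ptgs2 (116 CPM against 11.3 to 15.7). MIX_IT tumor 22 was marked for 9430007M09Rik (0.475 CPM against 0 to 0), H2-T23 (30.7 CPM against 5.04 to 9.42), Thbs1 (72.6 CPM against 25.2 to 32), Il1r2 (3.01 CPM against 0.851 to 1.01), Hba-a1 (1270 CPM against 154 to 200), Hba-a2 (723 CPM against 99 to 162) and Hbb-bt (526 CPM against 89.6 to 124). NCTD_IT tumor 20 was marked for Tyrp1 (3470 CPM against 2310 to 2450). MIX_IT tumor 24 was marked for Rpl37a (1020 CPM against 409 to 451). Among the genes of chromosomes X and Y, which the comparison left out, Xist averaged 9.59 CPM in NCTD_IT against 0 to 0.583 CPM in the CTRL_IT tumors and 0 in MIX_IT. Its part in the differences described cannot be told apart from that of PTX.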

How the results depend on the processing

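No paired analysis was possible because MIX_IT and NCTD_IT share no replicate number. For MIX_IT against NCTD_IT, the count of genes with an adjusted p below 0.05 was 0 in edgeR, 6 in DESeq2 on the 2 groups, 5 in DESeq2 on the 15 IT tumors, 1 with X and Y kept (Ddx3y), 179 with no filter on low counts, and 0 to 1 with a tumor left out, the 1 being Ftl1 without NCTD_IT tumor 17. Of the 179 genes, 175 were among the 12066, and the standard error of Ftl1 went from 1.02 to 0.262 in that fit of 26018 genes. The count was 0 in the other planned settings. The difference of the PTX steps gave 19 genes in DESeq2, 418 with no filter, 5 with X and Y kept, 2 at an adjusted p below 0.1, and 0 to 12 with a tumor left out (12 without PTX_IT tumor 16, 5 without MIX_IT tumor 23, 1 without NCTD_IT tumor 20). MIX_IP against NCTD_IP gave 9 in DESeq2 on the 2 groups, 2 on all IP groups, 1 in edgeR on the 2 groups alone, 64 with no filter, and 1 to 3 with a tumor left out, where the lone tumor of an arm is assumed to vary like the others. The route difference gave 1 in DESeq2, 70 with no filter, and 0 in every fit that omitted a tumor. The part of the squared distance due to group was 15.1% to 16.2% under the other distances and 15.5% to 20.8% with a tumor left out, with p of at least 0.171. With a tumor left out, the average share over splits is itself higher than with all tumors of the pair. The cause of the differences between settings was not tested. Of 138 named genes, 7 changed sign when a tumor was left out: H2-Aa (-1.85 to 0.16), Col6a3 (-0.23 to 2.59), Esam (-0.96 to 0.18), Tnni2 (-1.98 to 0.24), Acta1 (-1.96 to 1.40), Fabp4 (-0.46 to 0.63) and Mmp9 (-0.30 to 0.70). With Xist as a covariate, which separates the 2 groups completely, 0 genes passed, 1023 had an unadjusted p below 0.05 and 59 named genes changed sign, with log2 fold changes of Ly86 2.15, Zswim6 0.26, S100a8 1.68, Pde4b 0.34, Pde6d -0.25, Dusp1 1.16, Nfkbiz 0.55, Oas2 1.43, Isg15 1.22, H2-T23 0.37, Ctss 4.14, H2-Ab1 5.17, H2-Aa 6.59, Zeb2 0.33, Thbs1 0.78, Ccne1 -0.32, Ccnb2 -1.18, Rrm2 -0.96, Gadd45a 1.18, Bcl2a1b 2.82, Hras -0.051, Gsk3b 0.18, Pik3cg 3.45, Zfp36 0.47, Per1 2.17, mt-Rnr1 0.87, mt-Co1 0.54, mt-Nd6 0.82, Rps18 -0.67, Rps24 0.092, Prdx6 -0.028, Gas5 0.094, Plaur 0.18, Cd2 2.60, Cd3e 2.51, Trac 1.44, Ighm 1.13, Jchain 2.21, Igkc 4.56, Adgre1 3.58, Arg1 0.94, Aif1 3.63, Il1r2 7.97, Itgax 3.64, Clec10a 1.66, Zbtb46 0.96, Flt1 0.92, Esam 2.16, Dsp 3.00, Sfn 0.84, Tnni2 6.33, Actn3 19.40, Acta1 7.49, Hba-a1 -0.93, Hba-a2 -0.92, Hbb-bt -2.86, Erbb2 -1.93, Akt1 -0.45 and Ptgs2 1.14, where that of Ly86 depends on the prior count. No named gene changed sign in the other settings. Libraries of 2861578 to 6559840 reads limit genes under about 1 CPM.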

Other observations

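Satellite reads varied by tumor also outside the IT pair. In CTRL_IP, PTX_IP, NCTD_IP and MIX_IP, 2 tumors each in this order, the 5 satellite models summed to 87.1, 285, 1980, 511, 90.6, 3350, 144 and 134 CPM. CTRL_IP tumor 2, with 285 CPM, was the only IP tumor with Xist counts (8.57 CPM), and the 2 highest sums were in tumors with Y-linked reads. Rps18-ps3 had 30.9, 12.5, 38.1, 40.1, 27.8, 12.9, 65.9 and 112 CPM in the same tumors, with the 2 MIX_IP tumors highest.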
